A study of Homo sapiens with 12 samples.

Results

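The miRNAs of the imprinted DLK1-DIO3 domain of human chromosome 14 were followed in osteosarcoma cells before and during culture in differentiation medium. Members were taken from a list of mature miRNAs of this cluster, and all 48 listed names were found among the 851 human miRNA names of the arrays. A listed miRNA without signal counted as a member.

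The study profiled the human osteosarcoma line Saos-2 beside Sa/CD99, which are Saos-2 cells carrying a stable CD99 transfection, to follow the changes that go with CD99 during osteogenic culture. Each cell type was sampled at day 0, the basal condition, and at day 7 and day 14 of differentiation medium, on single-colour Agilent miRNA arrays. This medium held β-glycerophosphate and ascorbic acid and, by the study's methods, less serum than the routine medium. In a change from day 0, the medium, its serum and the time in culture thus cannot be told apart. The 6 groups were Saos-2 day 0, Saos-2 day 7, Saos-2 day 14, Sa/CD99 day 0, Sa/CD99 day 7 and Sa/CD99 day 14, each with 2 arrays. The Saos-2 arrays were replicates 1 and 2 of the parental, untransfected line, and the Sa/CD99 arrays were clones 22 and 36 (Sa/CD99wt22 and Sa/CD99wt36), each of which is 1 transfected line selected in neomycin. Nothing in the labels says that the Saos-2 replicates came from separate cultures, so p-values measure only the spread between these arrays.

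In this domain the protein-coding genes DLK1, RTL1 and DIO3 are active on the paternal chromosome, while MEG3, MEG8 and a long array of miRNA hairpins are transcribed from the maternal chromosome. The miRNAs are thought to be cut from long non-coding transcripts that share a direction, and they are best known from placenta, embryo and brain. The domain is often altered in tumours, and loss of many of its miRNAs has been described in osteosarcoma.

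The 5 members that were detected on any array are printed first, since the results turn on them. Sequences are from RefSeq (GRCh38.p14), in which 47 of the 48 members were matched to a mature sequence and hsa-miR-668 was not. Capitals mark the seed, bases 2 to 8, which is the stretch that pairs with target mRNAs.
hsa-miR-494: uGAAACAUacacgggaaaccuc
hsa-miR-134: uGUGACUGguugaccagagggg
hsa-miR-370: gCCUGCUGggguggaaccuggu
hsa-miR-654-5p: uGGUGGGCcgcagaacaugugc
hsa-miR-770-5p: uCCAGUACcacgugucagggcca

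The next 5 members were detected on no array and are shown for comparison, because they share a hairpin, a seed or close neighbourhood with a detected member. hsa-miR-654-3p comes from the same hairpin as hsa-miR-654-5p, and hsa-miR-541 has the same seed, GGUGGGC. hsa-miR-376a and hsa-miR-376b, which share the seed UCAUAGA, come from hairpins on either side of hsa-miR-654-5p. hsa-miR-382 comes from the hairpin before that of hsa-miR-134.
hsa-miR-654-3p: uAUGUCUGcugaccaucaccuu
hsa-miR-541: uGGUGGGCacagaaucuggacu
hsa-miR-376a: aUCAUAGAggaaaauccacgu
hsa-miR-376b: aUCAUAGAggaaaauccauguu
hsa-miR-382: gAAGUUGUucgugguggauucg

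These were the 2 seeds that occurred in more than 1 of the matched members, and they covered 4 members, of which 1, hsa-miR-654-5p, was detected. The seeds of hsa-miR-494 and hsa-miR-370 occurred in no other human mature miRNA of the RefSeq table, that of hsa-miR-134 also in hsa-miR-3118, and that of hsa-miR-770-5p also in hsa-miR-4712-5p. Of the 2 pairs that share a seed, 1 was undetected in both members and 1 was detected in 1 member.

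The deposited records disagree on which array belongs to which sample, and every result below by day or cell type depends on it. Counts of miRNAs detected on any array, or on all 12 arrays, do not. The authors' table of log2 values has 12 columns. Detection in each column was identical to that of exactly 1 scanner array in 847 of 847 names held by both, and the next most similar array had the same detection for 806 to 826 of them. For 12 of 12 columns the matching scanner array had been filed under another sample. The filed samples ran in the order of slide and array position for 12 of 12 arrays. Which record is right is not settled here. Values are given first by the labels of the table's columns, with the scanner array that matches each column, and then for the arrays as filed.

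By the table's labels, slide 1 held the 4 day 0 arrays and the 2 Saos-2 day 7 arrays, and slide 2 held the others. Each group thus lay on 1 slide. Slide and day cannot be told apart for day 14 against day 0 in either cell type or for day 7 against day 0 in Sa/CD99, nor slide and cell type at day 7. Day 7 against day 0 in Saos-2, and the cell type differences at day 0 and at day 14, lay within a slide. As filed, slide 1 held all Sa/CD99 arrays and slide 2 all Saos-2 arrays, and in that record the slide cannot be told apart from the cell type.

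Among detected miRNAs the table's values keep the order of the matched array's signals (rank correlation of 1.0). A value is therefore read here as the rank of a miRNA on its array, and undetected miRNAs tie at the lowest value of a column. A miRNA undetected on an array was given the lowest detected log2 value of that array, which is a bound. That bound was 2.0 and 0.75 on the Saos-2 day 0 arrays and 2.39 and 2.0 on the Sa/CD99 day 0 arrays, because few miRNAs were detected there. It went down to -3.09 on Saos-2 day 7 replicate 2. A dim member can therefore be detected at day 14 at a value below the day 0 bound, and then no fold change is given.

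The number of miRNAs detected and the total signal of the matched arrays were higher on most later arrays than at day 0. On the day 0 arrays 137, 158, 133 and 136 of 851 miRNAs were detected, in the order Saos-2 replicates 1 and 2 and Sa/CD99 clones 22 and 36. At day 7 these numbers were 158, 229, 177 and 173, and at day 14 they were 197, 209, 195 and 214. The total signal was 8917, 11130, 8815 and 8177 at day 0, then 9567, 22544, 13639 and 13785 at day 7, and 14822, 23881, 18914 and 25558 at day 14. All 4 day 0 arrays were thus among the 5 arrays of lowest signal. Saos-2 day 7 replicate 1 was the exception among the later arrays, with a total signal between those of the day 0 arrays.

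Most of the cluster was silent. Detection was seen for 5 of 48 members (10.4%) on at least 1 array, against 262 of 851 (30.8%) of all human miRNAs, and for 1 member against 100 miRNAs on all 12 arrays. The remaining 43 members were undetected on all 12 arrays, whichever record is used, since both records hold the same arrays. In bulk samples fewer cells of a type and less RNA per cell cannot be told apart. On each array the cluster had the lower share detected, from 2.08% to 10.4% of the members against 15.6% to 26.9% of all miRNAs.

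**Figure D1:**
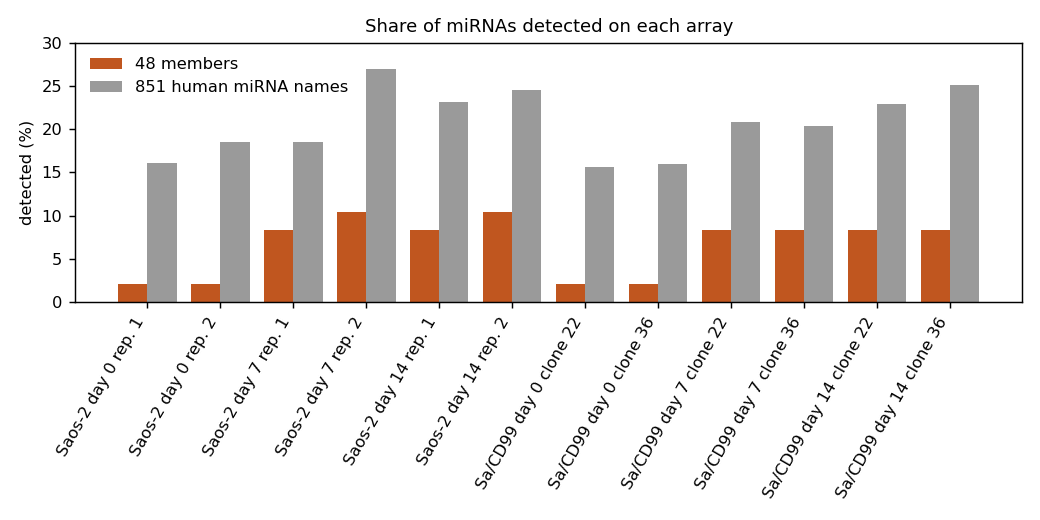
Share of the 48 cluster members (orange bars) and of all 851 human miRNA names (grey bars) detected on each array, in percent, by the table's labels. The members stand at 2.08% on the 4 day 0 arrays and at 8.33% or 10.4% on the later arrays, below the grey bar on every array.

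The members detected on an array were 1 on each day 0 array and 4 or 5 on each later array. By sample the numbers were 1 and 1 for Saos-2 day 0, 4 and 5 for day 7, and 4 and 5 for day 14. For Sa/CD99 they were 1 and 1 at day 0, 4 and 4 at day 7, and 4 and 4 at day 14. The count thus moved between day 0 and day 7 and was nearly constant afterwards, in both cell types.

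On slide 1, 2 arrays had the same number of detected miRNAs, 158. Saos-2 day 7 replicate 1 had a total signal of 9567 and 4 detected members, and Saos-2 day 0 replicate 2 had 11130 and 1. The part of total signal in the number of members detected was not tested.

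The silent members included well-known products of the domain: hsa-miR-127-3p, hsa-miR-136, hsa-miR-431, hsa-miR-432 and hsa-miR-433, which lie within RTL1 on the opposite strand, hsa-miR-379 and hsa-miR-410, and the hsa-miR-376 family. Their signal was low. The highest mean processed spot signal of any silent member lay between 0.61 and 2.15 on the 12 arrays. This was below the 5th percentile of detected miRNAs on the same array, which lay between 2.73 and 4.22. Silent members are those not marked as detected, so a lower signal follows largely from that choice and is a description only. The largest of these signals, 2.15, was that of hsa-miR-432 on Sa/CD99 day 14 clone 22. Each member was measured by 2 to 4 probes with 16 spots in all, so that the silent members were measured by as many spots as the detected ones.

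Position along the domain did not separate detected from silent members. The matched members came from 41 hairpins on the plus strand of chromosome 14 between 100852409 and 101066786 (GRCh38.p14), a span of 214.4 kb. hsa-miR-770-5p lies within the MEG3 gene at the start of the span, and hsa-miR-370 lies within MEG8, 58.8 kb further on. MIR494 is 2450 bases from MIR329-2 on one side and 337 bases from MIR1193 on the other. MIR654 is 70 bases from MIR376A2 and 136 bases from MIR376B, and MIR134 is 305 bases from MIR382 and 498 bases from MIR668. The members of these neighbours, hsa-miR-329, hsa-miR-376a, hsa-miR-376b, hsa-miR-382 and hsa-miR-668, were undetected on all 12 arrays. Detected members thus stood singly among silent ones.

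**Figure D2:**
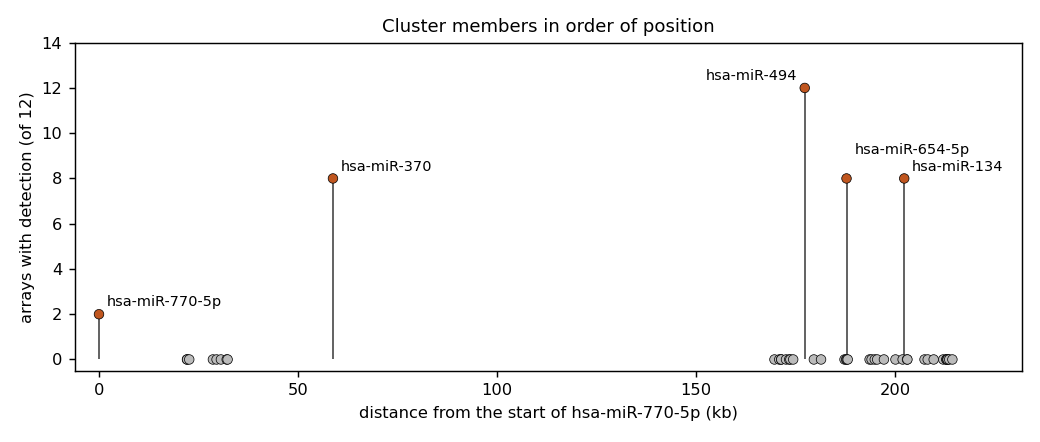
Number of arrays, of 12, on which each of the 47 matched members was detected (vertical axis) against its distance in kb from the start of hsa-miR-770-5p (horizontal axis), with detected members in orange and silent ones in grey. hsa-miR-494 is detected on 12 arrays, hsa-miR-134, hsa-miR-370 and hsa-miR-654-5p on 8, and hsa-miR-770-5p on 2, with silent members between and beside them.

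The hairpin of hsa-miR-654 showed the same within 1 precursor, as its 5p arm was detected on 8 arrays and its 3p arm on none. Base composition differed between the sets as a description. The GC content of the mature sequence had a median of 60.9% in the 5 detected members, from 45.5% to 68.2%, and a median of 45.5% in the 42 matched silent members, from 23.8% to 70.0%. The ranges overlapped, with hsa-miR-494 at the median of the silent members.

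hsa-miR-494 was the member detected on all 12 arrays. Its log2 value in Saos-2 was 5.29 and 2.88 at day 0, 6.11 and 7.47 at day 7, and 6.69 and 6.47 at day 14. In Sa/CD99 it was 3.55 and 3.95 at day 0, 6.80 and 6.75 at day 7, and 7.20 and 6.91 at day 14. All 8 later arrays were above all 4 day 0 arrays, and the values of the cell types overlapped at day 0 and day 7, whereas at day 14 both Sa/CD99 arrays were above both Saos-2 arrays. Its share of the total signal of the matched array also set day 0 apart, from 0.0420% to 0.256% on day 0 arrays and from 0.555% to 1.22% on later arrays. By this share the cell types overlapped at day 14, with 0.749% on Sa/CD99 clone 36 and 0.778% on Saos-2 replicate 2.

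hsa-miR-134, known for limiting the size of dendritic spines in neurons, was undetected on the 4 day 0 arrays and detected on the 8 later ones. Its log2 value in Saos-2 was 4.70 and 5.64 at day 7 and 6.35 and 5.79 at day 14. In Sa/CD99 it was 5.05 and 5.49 at day 7 and 6.85 and 6.69 at day 14. In each cell type both day 14 values were above both day 7 values, and at day 14 the Sa/CD99 arrays were above the Saos-2 arrays. It took from 0.211% to 0.726% of the total signal on the later arrays.

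hsa-miR-370, which lies within the maternally expressed MEG8, had the same pattern of detection at lower values. Its log2 value in Saos-2 was 1.36 and 3.29 at day 7 and 3.02 and 2.91 at day 14. In Sa/CD99 it was 1.39 and 2.91 at day 7 and 3.86 and 3.49 at day 14. The day 7 arrays differed by more than 1 log2 unit within each cell type, and the lower of them were below the day 0 bound of some arrays.

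hsa-miR-654-5p was likewise undetected on the day 0 arrays and detected on the 8 later ones. Its log2 value in Saos-2 was 3.02 and 0.84 at day 7 and 2.98 and -0.38 at day 14. In Sa/CD99 it was 2.88 and 2.77 at day 7 and 3.20 and 2.81 at day 14. Replicate 2 of Saos-2 was the lower at both days, while the Sa/CD99 arrays lay close together. The total gene signal of this miRNA on the matched arrays was 6.28 and 9.49 in Saos-2 at day 7 and 11.3 and 6.39 at day 14.

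hsa-miR-770-5p was detected on 2 arrays, Saos-2 day 7 replicate 2 at a log2 value of -2.48 and Saos-2 day 14 replicate 2 at -1.61. It was detected on no Sa/CD99 array and on both arrays of no group, so it was not tested.

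**Figure D3:**
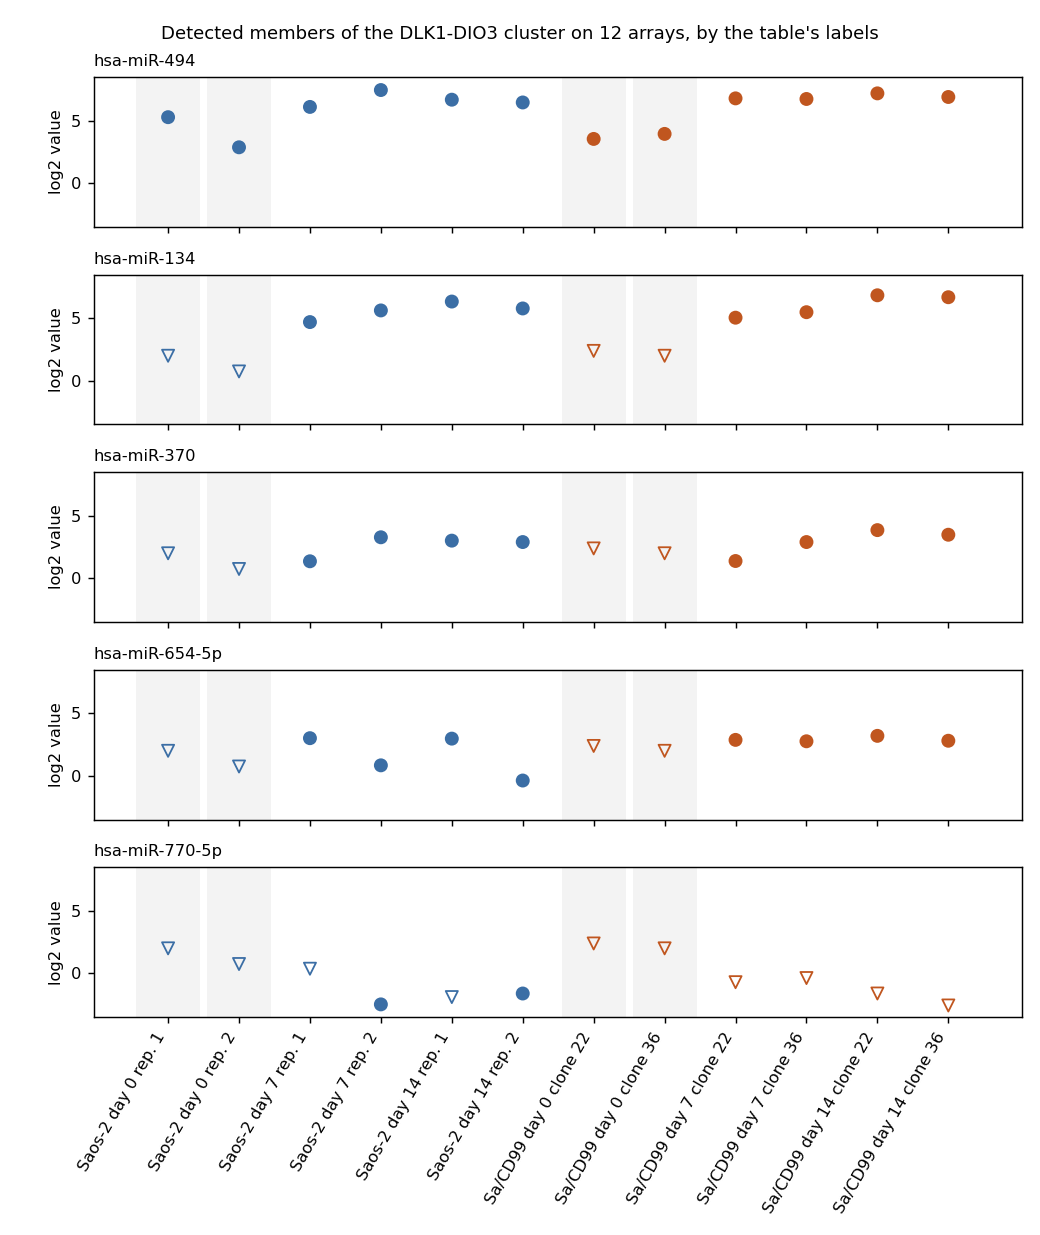
Log2 value (vertical axis) of the 5 detected members on the 12 arrays by the table's labels, Saos-2 in blue and Sa/CD99 in orange, with day 0 shaded. Filled points are detected values and open triangles mark the lowest detected value of an array on which the miRNA was undetected; hsa-miR-494 is between 2.88 and 5.29 on day 0 arrays and between 6.11 and 7.47 later, and hsa-miR-134 is undetected at day 0 and between 4.70 and 6.85 later.

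The pattern undetected on all 4 day 0 arrays and detected on all 8 later arrays was shown by 3 of 48 members, hsa-miR-134, hsa-miR-370 and hsa-miR-654-5p, which is 6.25% against 3.17% of all 851 miRNAs (27). The opposite pattern, detected on all day 0 arrays and on no later array, was shown by 0 members and by 1 miRNA of the table. The 3 members were thus a small part of the miRNAs that appeared after day 0.

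Each probe of hsa-miR-134, hsa-miR-370 and hsa-miR-494 had a higher mean on the later arrays than on the day 0 arrays. The 2 probes of hsa-miR-134 had a mean processed signal of 87.2 each on the later arrays and of 0.193 and 0.113 on the day 0 arrays. The 2 probes of hsa-miR-494 had 229 and 87.2 on the later arrays and 15.7 and 4.79 on the day 0 arrays. The probes of hsa-miR-370 had 8.99 and 19 on the later arrays and -0.585 and 0.00084 on the day 0 arrays. Of the 4 probes of hsa-miR-654-5p, 2 gave 21.5 and 17.8 on the later arrays, and the other 2 gave 1.40 and -0.33. The later signal of hsa-miR-654-5p thus came mostly from 2 of its probes.

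The change from day 0, the basal condition, to day 7 or day 14 in the medium was tested with limma over 219 miRNAs. These were detected on both of a group's arrays in 1 or more groups. All 6 groups were fitted together, and a change was called where the adjusted p (Benjamini-Hochberg) was 0.05 or less. Of the 48 members 4 were tested. hsa-miR-134, hsa-miR-370 and hsa-miR-654-5p entered only through groups in which they were detected, so their number is not evidence of a change. Their SE and p rest on the day 0 bounds in place of measured values and add nothing to the pattern of detection through which they entered. The scale itself shifted, since the median log2 change of the 100 miRNAs detected on all 12 arrays was -1.15 in Saos-2 and -1.57 in Sa/CD99 from day 0 to day 14, and -0.97 and -0.81 from day 0 to day 7. Changes of the members are read against these medians.

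From day 0 to day 14 in Saos-2, 2 of the 4 tested members were called, hsa-miR-134 and hsa-miR-494, both higher, where 62.1% of the tested miRNAs were called and 18.3% were called as higher. Over all miRNAs the 136 calls went to between 83 and 114 when 1 array was left out. Of the 136, 25 had the higher group undetected, through the raised bound. hsa-miR-134 rose at least 25.9-fold, a log2 change of 4.69 ± 0.54 (SE) with a limma adjusted p of 0.00011. hsa-miR-494 rose by 2.50 ± 0.73 with a limma adjusted p of 0.0155, above the change of 94 of the 100 miRNAs detected on all arrays. hsa-miR-370 had a bound of 1.59 ± 0.73 with a limma adjusted p of 0.0819. For hsa-miR-654-5p no fold is given, since its mean at day 14 was below the day 0 bound.

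In Sa/CD99 over the same days, hsa-miR-134 and hsa-miR-494 were again the 2 members called, both higher, where 71.7% of the tested miRNAs were called and 18.3% as higher. Over all miRNAs the 157 calls went to between 117 and 127 when 1 array was left out. Of the 157, 22 had the higher group undetected, through the raised bound. hsa-miR-134 rose at least 23.8-fold, a log2 change of 4.57 ± 0.54 with a limma adjusted p of 0.000108. hsa-miR-494 rose by 3.30 ± 0.73 with a limma adjusted p of 0.00326, above 95 of the 100. The bounds of hsa-miR-370 and hsa-miR-654-5p were 1.48 ± 0.73 and 0.81 ± 1.02, with limma adjusted p of 0.091 and 0.465, and neither was called.

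The step from day 0 to day 7 in Saos-2, a comparison within slide 1, gave the same 2 called members, both higher, where 46.6% of the tested miRNAs were called and 18.3% as higher. Over all miRNAs the 102 calls went to between 51 and 135 when 1 array was left out. Of the 102, 13 had the higher group undetected, through the raised bound. hsa-miR-134 rose at least 13.9-fold, a log2 change of 3.79 ± 0.54 with a limma adjusted p of 0.00068. hsa-miR-494 rose by 2.70 ± 0.73 with a limma adjusted p of 0.0159. The bounds of hsa-miR-370 and hsa-miR-654-5p were 0.95 ± 0.73 and 0.55 ± 1.02, with limma adjusted p of 0.271 and 0.63.

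In Sa/CD99 at day 7, where slide and day cannot be told apart, the same 2 members were called, both higher, where 48.9% of the tested miRNAs were called and 14.2% as higher. Over all miRNAs the 107 calls went to between 38 and 53 when 1 array was left out. Of the 107, 38 had the higher group undetected, through the raised bound. hsa-miR-134 rose at least 8.43-fold, a log2 change of 3.07 ± 0.54 with a limma adjusted p of 0.00267. hsa-miR-494 rose by 3.02 ± 0.73 with a limma adjusted p of 0.0106. The bound of hsa-miR-654-5p was 0.63 ± 1.02 with a limma adjusted p of 0.591, and for hsa-miR-370 no fold is given, since its mean at day 7 was below the day 0 bound.

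Leaving out 1 array moved the change of hsa-miR-494 in Saos-2 and moved it little in Sa/CD99. Without Saos-2 day 0 replicate 2, the array on which hsa-miR-494 was lowest, its log2 change in Saos-2 was 1.29 at day 14 and 1.5 at day 7, with limma adjusted p of 0.105 and 0.0838. Without Saos-2 day 0 replicate 1 it was 3.70 and 3.91, with limma adjusted p of 0.00192 and 0.002. Without Saos-2 day 7 replicate 2 it was 2.03 (limma adjusted p of 0.11), and without Saos-2 day 14 replicate 1 it was 2.38 (limma adjusted p of 0.0569). In Sa/CD99 the day 14 call was kept in all 4 cases. The day 7 call there was lost without day 0 clone 22, day 7 clone 22 or day 7 clone 36, at log2 changes of 2.82, 3.0 and 3.05 and limma adjusted p of 0.0715, 0.0503 and 0.0525. These changes were near the 3.02 of all arrays, so the lost calls do not show that the change rested on 1 array.

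For hsa-miR-134 the log2 changes without 1 array ran from 2.85 to 5.32 over the 4 comparisons, and it was called in each. hsa-miR-370 was called in Saos-2 at day 7 without day 7 replicate 1, at 1.91 with a limma adjusted p of 0.044.

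A scaling that does not use ranks moved the median of the miRNAs detected on all arrays less. Total gene signals of the matched scanner arrays were divided by the 75th percentile of the miRNAs detected on all arrays, and signals that were undetected or below a common floor were set to that floor, so that changes against day 0 are bounds for every member but hsa-miR-494. The median change of the 99 miRNAs detected on all arrays was then -0.41 and -0.46 from day 0 to day 14 in Saos-2 and Sa/CD99, and -0.40 and -0.33 from day 0 to day 7. The split of calls turned too. In Saos-2 at day 14 it was 57 higher and 26 lower against 40 and 96 on the rank scale, and in Sa/CD99 83 and 37 against 40 and 117. At day 7 it was 44 and 17 against 40 and 62 in Saos-2, and 45 and 13 against 31 and 76 in Sa/CD99.

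On this scaling all 4 tested members were called as higher at day 14 in both cell types, where 38.2% of the tested miRNAs were called in Saos-2 (26.3% as higher) and 55.3% in Sa/CD99 (38.2% as higher). For 3 of them, all but hsa-miR-494, the direction was fixed by the filter and by the floor, which is the same on all 4 day 0 arrays and lowers the spread behind the p. hsa-miR-134 rose at least 38.2-fold in Saos-2 and at least 71.7-fold in Sa/CD99, with limma adjusted p of 3.65e-05 and 1.06e-05. hsa-miR-370 rose at least 5.54-fold and at least 10.1-fold, with limma adjusted p of 0.00504 and 0.000712. hsa-miR-654-5p rose at least 3.24-fold and at least 7.09-fold, with limma adjusted p of 0.0479 and 0.00344. On the same matched arrays, with spots summarised by median polish, its fold was 1.35 in Saos-2 and 3.51 in Sa/CD99. The limma adjusted p there were 0.341 and 0.00216, so the Saos-2 change was not called. hsa-miR-494 rose 9.51-fold and 24.2-fold, with limma adjusted p of 0.0144 and 0.00176. Refits of this scaling without 1 array, or with a correlation between arrays of the same number, were added after the data had been seen. In Sa/CD99 all 4 calls were kept whichever array was left out. In Saos-2, without day 14 replicate 1 the change of hsa-miR-654-5p went from 1.70 to 0.72 and that of hsa-miR-494 from 3.25 to 3.05, and neither was called. With each of the 4 arrays left out in turn, the change of hsa-miR-654-5p ranged from 0.72 to 2.67. Without day 0 replicate 2 the change of hsa-miR-494 was 1.84 and still called, with a limma adjusted p of 0.0486, and without day 0 replicate 1 it was 4.66 (limma adjusted p of 0.000896). The call of hsa-miR-654-5p was also lost without day 0 replicate 1 or 2 (limma adjusted p of 0.141 and 0.137), with the change left at 1.70, since it stands at the common floor on all day 0 arrays.

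At day 7 on this scaling, 3 members were called in Saos-2, where 28.1% of the tested miRNAs were called (20.3% as higher), and 4 in Sa/CD99, where 26.7% were (20.7% as higher). All of these members were higher, and hsa-miR-654-5p was the one not called in Saos-2, at a log2 change of 1.74 ± 0.57 and a limma adjusted p of 0.054. With an estimated correlation between arrays of the same number, it was called, with a limma adjusted p of 0.027.

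Several of these day 7 calls were lost when 1 array was left out, in part with no change in size. In Saos-2, hsa-miR-370 went from 1.79 to 1.0 without day 7 replicate 2 and stayed at 1.79 without day 0 replicate 1 or 2, each time losing its call. Without day 7 replicate 1 it was 2.58. hsa-miR-494 went there from 3.17 to 1.76 without day 0 replicate 2 and to 2.57 without day 7 replicate 2, with limma adjusted p of 0.0695 and 0.116, and to 4.58 without day 0 replicate 1, with a limma adjusted p of 0.00116. In Saos-2 at day 7 the size of both changes thus depended on single arrays.

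In Sa/CD99, hsa-miR-654-5p lost its day 7 call whichever array was left out, at log2 changes of 1.99 and 1.99 without day 0 clones 22 and 36 and of 2.09 and 1.90 without day 7 clones 22 and 36, against 1.99 with all arrays. The limma adjusted p were 0.122, 0.126, 0.0908 and 0.141. hsa-miR-370 went from 1.70 to 1.24 without day 7 clone 36 (limma adjusted p of 0.228) and stayed at 1.70 without either day 0 clone (limma adjusted p of 0.133 and 0.14). hsa-miR-494 lost its call without day 0 clone 22, at 3.69 against 3.97 with all arrays, with a limma adjusted p of 0.0515.

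**Figure D4:**
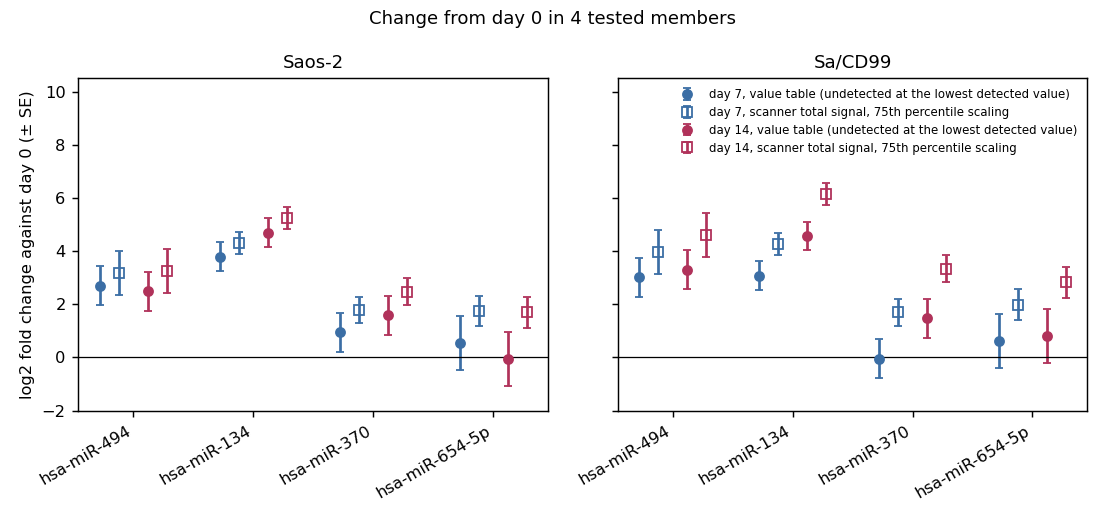
Log2 fold change against day 0 (vertical axis, bars are ± SE of the limma fit) of the 4 tested members in Saos-2 and Sa/CD99, at day 7 (blue) and day 14 (red), on the rank scale of the value table (filled circles) and with 75th percentile scaling of scanner signals (open squares). On the rank scale hsa-miR-134 lies between 3.07 and 4.69 and hsa-miR-494 between 2.50 and 3.30, while values of hsa-miR-370 and hsa-miR-654-5p below 0 come from the raised day 0 values and are no fold.

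The effect of CD99 transfection was asked at each day, with the rule of the study's methods, which takes a p of 0.01 or less together with a minimum fold change, and was applied here to the unadjusted p. At day 0, limma called 0 members, where 0% of the tested miRNAs were called. hsa-miR-494 was the only member detected in these groups, with a log2 difference, Sa/CD99 minus Saos-2, of -0.34 ± 0.73 and a limma adjusted p of 0.882. Its direction turned on 1 array. Without Saos-2 day 0 replicate 2 the difference was -1.54, and -1.95 on the 75th percentile scaling. Without Saos-2 day 0 replicate 1 it was 0.87 on both scales. The other 3 tested members were undetected on all 4 arrays, so their day 0 tests compare bounds and not levels.

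At day 7, limma called 0 members, where 2.74% of the tested miRNAs were called, and 0 members at an adjusted p of 0.05 or less, where 0.913% were. The log2 differences were 0.11 ± 0.54 for hsa-miR-134, -0.18 ± 0.73 for hsa-miR-370, -0.016 ± 0.73 for hsa-miR-494 and 0.89 ± 1.02 for hsa-miR-654-5p. Each was smaller in size than its standard error.

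At day 14, limma called 0 members, where 7.76% of the tested miRNAs were called, and 0 at an adjusted p of 0.05 or less, where 4.57% were. The log2 differences were 0.70 ± 0.54 for hsa-miR-134, 0.71 ± 0.73 for hsa-miR-370, 0.47 ± 0.73 for hsa-miR-494 and 1.70 ± 1.02 for hsa-miR-654-5p, with limma adjusted p of 0.467, 0.591, 0.716 and 0.416. On the rank scale hsa-miR-134, hsa-miR-370 and hsa-miR-494 were higher on both Sa/CD99 arrays than on both Saos-2 arrays. The value of hsa-miR-654-5p turned on which Saos-2 array was left out. Without Saos-2 day 14 replicate 2, the lower array, it was 0.026 with a limma adjusted p of 0.998. Without Saos-2 day 14 replicate 1 it was called, at 3.38 with a limma adjusted p of 0.0291, and on the 75th percentile scaling at 2.11 with a limma adjusted p of 0.0132.

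Over all days limma called 0 members, where 0% of the tested miRNAs were called at an adjusted p of 0.05 or less. Without Saos-2 day 14 replicate 1 hsa-miR-654-5p was called here too, at 1.70 with a limma adjusted p of 0.0488, and without replicate 2 it was 0.58 with a limma adjusted p of 0.709, against 1.14 with all arrays. The dependence of the cell type difference on the day was called for 0 members, where 1.83% of the tested miRNAs were called, and the smallest unadjusted p of limma's F test among the members was 0.583. The bounds of day 0 enter both of these tests for hsa-miR-134, hsa-miR-370 and hsa-miR-654-5p, so that hsa-miR-494 is the 1 member whose levels were compared at every day. At an unadjusted p of at most 0.05, 0 members passed in any of these 5 tests, against 3, 12 and 37 of 219 miRNAs at days 0, 7 and 14, 36 over all days and 19 in the interaction.

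With 75th percentile scaling limma also called 0 members between the cell types, where 1.84%, 2.3% and 9.68% of the tested miRNAs were called at days 0, 7 and 14, 0.461% over all days and 1.38% in the interaction. At an unadjusted p of at most 0.05, 0 members passed in each, against 12, 16, 56, 33 and 22 miRNAs. At day 0 this is a test of hsa-miR-494 alone, since the other 3 members stand at the common floor on all 4 arrays. At day 14 the calls over all miRNAs were 20 higher and 1 lower in Sa/CD99 on that scaling, against 10 and 7 on the rank scale. By the table's labels the members that changed thus changed with the day, and no difference in that change between the cell types was called.

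The arrays as filed gave another account of the same spots. In that record the 4 arrays without hsa-miR-134, hsa-miR-370 and hsa-miR-654-5p were labelled Sa/CD99 day 0 clone 36, Sa/CD99 day 7 clone 22 and Sa/CD99 day 14 clones 22 and 36. All 6 Saos-2 arrays and the other 2 Sa/CD99 arrays detected these 3 members. The total gene signal of hsa-miR-494 as filed was 231, 111, 145, 191, 186 and 127 on the Saos-2 arrays, in the order of day and replicate, and 53.1, 4.70, 22.9, 269, 6.90 and 4.68 on the Sa/CD99 arrays, in the order of day and clone. As filed, the low arrays were thus all Sa/CD99, at each of the 3 days.

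With the arrays as filed, and with spot intensities background-corrected, quantile normalized and summarised by median polish, 211 miRNAs were tested. In the comparisons of days limma called 0 members in either cell type, where 0% of the tested miRNAs were called. At an unadjusted p of at most 0.05, 0 of the 4 tested members passed there, against 5 and 9 of all miRNAs at day 14 in Saos-2 and Sa/CD99 and 0 and 2 at day 7. Over all days, limma called 3 of the 4 tested members, where 39.3% of the tested miRNAs were called and 23.2% were called as lower in Sa/CD99. This fit treats the arrays of 1 clone at 3 days as independent, and no replicate block was fitted as filed. By the table's labels, the block raised the SE of hsa-miR-494 in this comparison from 0.42 to 0.57. The miRNAs at an unadjusted limma p of at most 0.05 went there from 36 to 14. hsa-miR-134 was lower in Sa/CD99 by a log2 difference of -4.25 ± 1.06, with a limma adjusted p of 0.0265. For hsa-miR-370 and hsa-miR-494 the differences were -1.46 ± 0.43 and -2.54 ± 0.76, with limma adjusted p of 0.032 and 0.032. hsa-miR-654-5p had -0.82 ± 0.35 with a limma adjusted p of 0.0842 and was not called. As filed, hsa-miR-134, hsa-miR-370 and hsa-miR-654-5p entered only through Saos-2 groups, so their number called as lower is not evidence of a difference. Their differences in part set detected against undetected arrays. On the Sa/CD99 arrays that did not detect hsa-miR-134, its level was between -0.13 and 0.43. hsa-miR-494 was detected on every array. Arrays of the same group were less alike as filed than by the table's labels. With the same summary of spots, the SE of a difference at 1 day was 1.83 as filed for hsa-miR-134, against 0.43 by the table's labels. For hsa-miR-494 it was 1.31 against 0.95, and it was larger as filed for all 4 tested members. What this spread says about the labels was not tested.

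At the single days of that record, limma called 0 members by the methods' rule, where 2.84%, 0% and 8.06% of the tested miRNAs were called at days 0, 7 and 14. Of the 4 tested members 2, 0 and 3 had a limma p, before adjustment, of 0.05 or less at these days, against 51, 8 and 57 of all miRNAs. The interaction was called by limma for 0 members, where 0% of the miRNAs were called, with 0 members and 0 miRNAs at an unadjusted p of at most 0.05. The difference among the arrays thus fell on the day by the table's labels and on the cell type as filed, where the slide changed with the cell type.

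**Figure D5:**
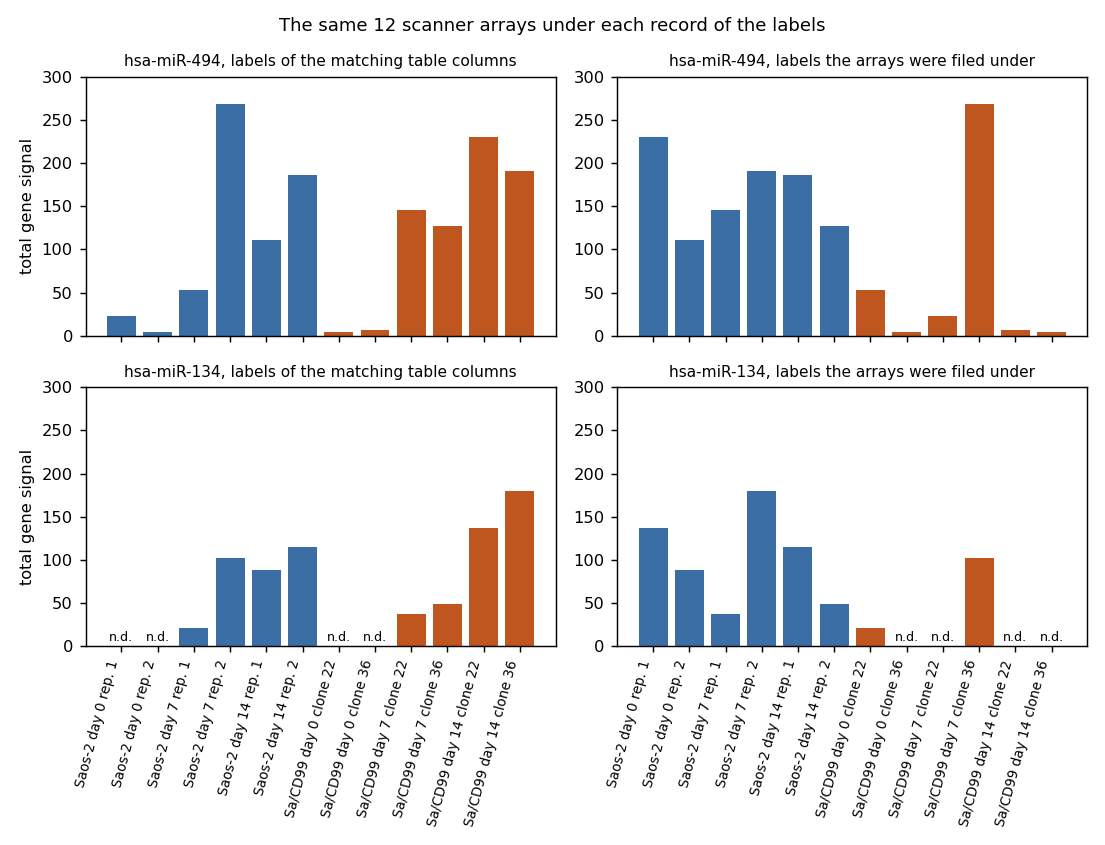
Total gene signal (vertical axis, linear, scanner units) of hsa-miR-494 and hsa-miR-134 on the same 12 scanner arrays, labelled by the matching columns of the value table (left) and by the sample each array was filed under (right), Saos-2 in blue and Sa/CD99 in orange, n.d. for not detected. By the table's labels the arrays without hsa-miR-134 are the 4 of day 0, and as filed they are 4 of the 6 Sa/CD99 arrays.

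Other miRNA lists put the cluster in context. Of 19 further products of the same imprinted domain on the arrays, such as passenger strands, 0 were detected on any array. The members and these products together thus showed 5 detected products. The imprinted chromosome 19 cluster, a primate-specific group of placental miRNAs, had 4 of 45 detected, or 8.89%, against the 10.4% of the members. The list had first held hsa-miR-513 and hsa-miR-514 too, of which RefSeq places the genes on the X chromosome, and with them 7 of 50, or 14%, were detected. They were left out after these counts had been seen. Of 8 imprinted miRNAs elsewhere in the genome 2 were detected, of which hsa-miR-483-5p, encoded within IGF2, was also undetected at day 0 and detected on all 8 later arrays, between 5.79 and 7.47. Of 4 miRNAs in 14q32 outside the imprinted domain, 3 were detected, and hsa-miR-342-3p on all 12 arrays, at values from 2.77 to 6.15.

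The labelled cell type was checked against marker miRNAs. Of 5 mesenchymal miRNAs, 4 were detected on all 12 arrays, namely hsa-miR-145, hsa-miR-199a-3p, hsa-miR-199a-5p and hsa-miR-214, and hsa-miR-143 on none. Of the blood cell (4), epithelial (5), liver (1) and pluripotent cell (5) miRNAs, 0 were detected. Of 4 muscle miRNAs 1 was detected, hsa-miR-133b on 3 later arrays, and of 2 neuronal miRNAs 1, hsa-miR-9 on Saos-2 day 14 replicate 2. The defining markers of other cell types were thus undetected on the day 7 and day 14 arrays that detected hsa-miR-134, hsa-miR-370 and hsa-miR-654-5p, other than these 2.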

How the data were processed

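Total RNA of 12 cell line samples was hybridised to Agilent human miRNA arrays by the authors, and the deposited spot intensity and total gene signal were extracted with Feature Extraction (10.7.3.1 in the file headers), without normalization between arrays. The gIsGeneDetected column of the deposited scanner files marks detection. The authors also deposited log2 values, made by the methods with an adaptation of rma. Set against the scanner files, these keep the order of the total gene signals on each array. The highest value was 10.5 to 11.0 on the day 0 columns and 14.1 to 15.0 on later ones. Plain quantile normalization over the 851 names therefore does not give these values exactly. Undetected miRNAs stand at the column minimum. Column medians lie at that minimum, since at most 26.9% were detected on an array. Members and lists were chosen with earlier results of these data known.

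The table was used under its own labels, with undetected values raised to the lowest detected value of the column, so that a fold against an undetected group is a bound. As this bound is high at day 0, some calls had the higher group undetected, none of them a member. Models were fitted with limma 3.58.1 on R 4.3.3 and tested on simulated data. All detected members are named, those called first. Array names without an arm were matched by hand to the RefSeq arm. The chromosome 19 list is given with and without hsa-miR-513 and hsa-miR-514.

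Each clone is the same line at every day, which pairs the arrays of Sa/CD99. Deviations of same-numbered arrays from the group means correlated across miRNAs at 0.0586, 0.289 and 0.135 in Sa/CD99 and at 0.161, 0.544 and 0.357 in Saos-2, for days 0 and 7, 0 and 14, and 7 and 14. Alternatives changed detection, the floor, the filter, the scaling, the background correction, the labels, the arrays fitted, the slide, the pairing and the threshold. Leaving out arrays and the replicate block on the 75th percentile scaling were added after seeing the data. The number of arrays, 2 per group, limits the precision.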

Additional observations from a re-analysis of the deposited data

How the results depend on the processing

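Counts of called members depended on how undetected miRNAs and labels were handled. With undetected miRNAs at the deposited floor, 4 members were called in each of the 4 comparisons of days. Among miRNAs detected on all 12 arrays 1 was called in each, since 1 member was tested. With no filter 46 were called in each, most of them silent members called lower because the raised floors differ between columns. On scanner arrays with the labels of their columns, with and without background correction, 4 were called in Sa/CD99 and 3 in Saos-2 at both days. With 75th percentile scaling 3 were called in Saos-2 at day 7 and 4 in the other 3. With columns centred on the miRNAs detected on all 12 arrays 3 were called at day 14 in both cell types. In fits of only the groups compared, 4 were called at day 14 in Sa/CD99 and 1 at both days in Saos-2. As filed, 0 were called in each comparison of days and 3 between the cell types over all days. Other causes were not tested.

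As filed, log2 changes in Saos-2 turned to -1.04, -0.50 and -0.26 at day 14 for hsa-miR-134, hsa-miR-370 and hsa-miR-494, and to -0.83, -0.40 and -0.10 at day 7, with -0.28 for hsa-miR-654-5p. In Sa/CD99 at day 14 they turned to -1.90, -0.74 and -1.34. Differences between the cell types turned to -5.35, -1.96, -4.05 and -0.45 at day 14 for hsa-miR-134, hsa-miR-370, hsa-miR-494 and hsa-miR-654-5p, and to -2.91 and -0.63 at day 7 for hsa-miR-134 and hsa-miR-654-5p. Of these members, only hsa-miR-494 was detected on the Sa/CD99 day 14 arrays as filed. By the table's labels, the cell type difference of hsa-miR-134 at day 7 was -0.025 with 75th percentile scaling. That of hsa-miR-494 was 0.26 there, 0.22 on scanner arrays with the labels of their columns and 0.15 without background correction.

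Leaving out 1 array in turn, with the lone array assumed to vary like the other groups, gave from 1 to 2 called members in Saos-2 at day 14 and in Sa/CD99 at day 7, from 1 to 3 in Saos-2 at day 7, 2 throughout in Sa/CD99 at day 14, and from 0 to 1 between the cell types at day 14 and over all days. On the 75th percentile scaling it gave from 2 to 4 in Saos-2 at day 14, 1 to 3 at day 7, 1 to 3 in Sa/CD99 at day 7 and 0 to 1 between the cell types at day 14. Between the cell types at day 7, log2 differences ranged from -0.36 to 0.57 for hsa-miR-134, -1.14 to 0.78 for hsa-miR-370, -0.69 to 0.66 for hsa-miR-494 and -0.19 to 1.98 for hsa-miR-654-5p, and at day 0 from -1.54 to 0.87 for hsa-miR-494. Changes in Saos-2 at day 7 ranged from -0.012 to 1.91 for hsa-miR-370 and from -0.53 to 1.64 for hsa-miR-654-5p.

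The replicate block, with a correlation of 0.254, left 2 members called in each comparison of days and 0 in the others. On the 75th percentile scaling its correlation was 0.25, and 4 members were called in each comparison of days and 0 in the others. The slide as a block had a correlation of 0 and cannot show an effect of the slide, since each group lay on 1 slide.

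Over all miRNAs, calls for day 14 ranged over the alternatives from 0 (as filed) to 740 (no filter) in Saos-2, against 136, and from 0 to 754 in Sa/CD99, against 157. For day 7 they ranged from 0 to 718, against 102, and from 0 to 728, against 107. Between the cell types they ranged from 0 to 11 at day 0, 0 to 7 at day 7 and 4 to 21 at day 14, against 0, 6 and 17, and from 0 to 83 over all days, against 0. The interaction had from 0 to 12, against 4. Leaving out 1 array gave 83 to 114, 117 to 127, 51 to 135 and 38 to 53 in the comparisons of days, in that order, and 0 to 4, 3 to 33 and 7 to 36 between the cell types at days 0, 7 and 14, 0 to 18 over all days and 0 to 13 in the interaction. On the 75th percentile scaling it gave 3 to 6, 5 to 12 and 10 to 45 at these days and 1 to 21 over all days. The number of calls in the interaction on that scaling also depended on which array was left out. For the 43 of 48 members without detection, absence and a signal too close to background cannot be told apart.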
